A study of Mus musculus with 4 samples.

Results

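The immunity-related GTPases (IRG proteins) were examined in thyroids of mice given an antibody against PD-L1. The family was taken as 10 gene symbols, Irgm1, Irgm2, Igtp, Iigp1, Tgtp1, Tgtp2, Ifi47, Gm12250, Gm4841 and F830016B08Rik. All 10 were among the 16218 genes of the deposited count table, and all 10 passed the filter on low counts. The genes were chosen by their symbols after their higher counts under anti-PD-L1 had been seen, so the family was selected on the same 4 libraries and its difference between the groups is given as a description and not as a test of the treatment.

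The data were poly(A)-selected, paired-end RNA-seq libraries of whole thyroid from NOD.H-2h4 mice. Animals of that strain tend to develop thyroid autoimmunity. The anti-PD-L1 group had 2 libraries, of mice given a monoclonal antibody that binds PD-L1, the ligand of the T cell checkpoint receptor PD-1. The IgG group had 2 libraries, of mice given isotype control IgG in its place. Injections were given 3 times a week for 2 weeks, after which the thyroid was taken. Age is not given in the sources used here, nor whether a library held more than 1 animal. The labels' batch field holds a different clone name for each of the 4 libraries, running on by 1 within a group. Whether these are really different antibody clones is uncertain, and the field cannot be told apart from the library.

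IRG proteins are GTPases of the cell-autonomous defence against intracellular bacteria and protozoa in the mouse, and most of their genes are switched on by interferons, above all interferon gamma. In infected mouse cells the effector IRG proteins load onto the membrane around the pathogen and break it. The regulator proteins sit on the cell's own membranes and keep the effectors in an inactive state there. The groups are named after the nucleotide-binding loop (P-loop), in which the regulators carry methionine (GMS) where the effectors carry lysine (GKS).

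The coding sequences of the reference transcripts (GENCODE M21, GRCm38) divided the 10 genes in that way. The P-loop stretches of 8 codons are shown for the chromosome 11 genes because they separate regulators from effectors, with the codon that differs in capitals. The stretch was the same in Irgm1, Irgm2 and Igtp, and the same in Tgtp1 and Tgtp2.
Irgm1, Irgm2 and Igtp: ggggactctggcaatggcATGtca
Tgtp1 and Tgtp2: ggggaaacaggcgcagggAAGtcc
Ifi47: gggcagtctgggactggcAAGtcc
Gm12250: ggggagacaggggcagggAAGtcc
The ATG codon for methionine stood in the 3 regulators, and a codon for lysine (AAG, or AAA in F830016B08Rik) in the other 7 genes. The stretch began at codon 83 of Irgm1 and Irgm2, 91 of Igtp, 63 of Tgtp1 and Tgtp2, 81 of Ifi47 and 75 of Gm12250. GENCODE lists Gm12250 as a processed pseudogene, whereas RefSeq lists it as protein-coding under the synonym Irgb10. Its transcript held an open reading frame of 417 codons. Over whole coding sequences, the 3 pairs of regulators were 61.8% to 66.3% identical, and the 21 pairs of a regulator with an effector 46.6% to 50.5%. Among the effectors, Gm4841 and F830016B08Rik were 75.4% identical and Tgtp1 and Tgtp2 99.7%.

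The promoters are shown for 6 of the genes because they hold the letters of interferon-response elements, 5 of them of both kinds searched and Irgm1 of 1 kind. RefSeq promoters (GRCm38.p6) were matched for 7 members, and the 250 bases before each annotated start were searched on both strands. The letters searched were TTCNNNGAA for the gamma-activated site (GAS), an element of interferon gamma responses, and GAAA, any 2 bases, then GAAA again for the interferon-stimulated response element (ISRE), which ISGF3 and IRF proteins bind. The GAS letters read the same on both strands, and no GAS match overlapped an ISRE match. The sequences run 5′ to 3′ on the gene's strand over the last 120 bases before the start, with matches in capitals.
Irgm1, minus strand, chr11:48871421-48871540: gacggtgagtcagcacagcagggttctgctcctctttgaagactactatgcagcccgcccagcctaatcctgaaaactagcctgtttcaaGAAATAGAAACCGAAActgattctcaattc
Irgm2, plus strand, chr11:58214857-58214976: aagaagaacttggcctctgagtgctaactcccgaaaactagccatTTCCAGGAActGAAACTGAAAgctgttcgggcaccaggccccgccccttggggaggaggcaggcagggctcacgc
Igtp, plus strand, chr11:58199436-58199555: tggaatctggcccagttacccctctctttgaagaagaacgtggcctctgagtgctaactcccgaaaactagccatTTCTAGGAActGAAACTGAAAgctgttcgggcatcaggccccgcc
Tgtp1, minus strand, chr11:48992247-48992366: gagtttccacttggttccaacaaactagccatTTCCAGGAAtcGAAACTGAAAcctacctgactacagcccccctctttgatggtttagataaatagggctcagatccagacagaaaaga
Tgtp2, minus strand, chr11:49064213-49064332: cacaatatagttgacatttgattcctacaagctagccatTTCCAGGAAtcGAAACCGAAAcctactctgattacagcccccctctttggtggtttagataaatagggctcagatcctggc
Gm12250, plus strand, chr11:58183723-58183842: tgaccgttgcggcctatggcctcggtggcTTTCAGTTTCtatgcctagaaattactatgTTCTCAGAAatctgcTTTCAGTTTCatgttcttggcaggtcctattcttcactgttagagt
The ISRE letters were found in 6 of the 7 windows and the GAS letters in 5, and 5 windows held both. Of all 32851 RefSeq promoter windows of the same length, 2.98% held the ISRE letters, 7.02% the GAS letters and 0.332% both. In Irgm2, Igtp, Tgtp1 and Tgtp2 the ISRE match began 3 bases after the last base of the GAS match, and Irgm1 had 2 overlapping ISRE matches and no GAS match. In Gm12250 the 2 ISRE matches lay on the opposite strand, 1 on each side of the GAS match. The Ifi47 window held neither. The Irgm2 and Igtp windows were 68.1% identical and those of Tgtp1 and Tgtp2 60.6%. These matches are letters only, and binding was not measured. Some RefSeq starts differ from the GENCODE ones, and the stretches shown for Irgm1, Irgm2 and Tgtp1 lie inside the GENCODE gene spans given below.

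Library totals were 75591923 and 77685257 counts for the anti-PD-L1 libraries, and 79663374.5 and 77492328 for the IgG libraries. The thyrocyte markers Tg, Slc5a5, Tshr, Pax8, Nkx2-1, Foxe1, Duox2, Iyd and Dio1 were all above 0 in every library. Anti-PD-L1 replicate 1 stood apart from the other libraries. Tg, the gene of thyroglobulin, took 4.34% of its counts, against 14.6% to 16.9% in the other libraries. It also had 1.40 CPM (counts scaled to a common library size after TMM normalization) of the X-inactivation RNA Xist, where the others had at least 67.7 CPM. The Y-linked gene Ddx3y stood at 62.6 CPM in it and at 0.790 CPM or less in the others. By Xist and Ddx3y, anti-PD-L1 replicate 1 had a male pattern and the other libraries a female pattern. Sex therefore appears to be mixed in the anti-PD-L1 group only. The family's fold changes are therefore also given without anti-PD-L1 replicate 1.

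The 10 IRG genes together had 1097 and 1025 CPM in anti-PD-L1 thyroids, against 132 and 136 CPM in IgG thyroids. The summed level was 7.94 times higher on average, and the replicates of each group lay close together. In every member the lower anti-PD-L1 value exceeded the higher IgG value, as it did in 16.5% of the 16217 genes tested. The log2 fold changes (anti-PD-L1 over IgG, edgeR) ran between 2.41 for Irgm1 and 5.08 for Gm4841, with a median of 3.21 beside 0.00021 over all genes tested. Without anti-PD-L1 replicate 1 they ran between 2.37 and 5.19, with a median of 3.12. In a whole organ, more cells of a type and more RNA per cell cannot be told apart.

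The quasi-likelihood test of edgeR, adjusted over all genes by Benjamini-Hochberg, called 0 of the 10 members at a threshold of 0.05. It called 0% of all genes higher and 0% lower. The members' edgeR adjusted p-values were 0.0635 for Gm4841, 0.0833 for 7 members, 0.162 for Ifi47 and 0.225 for Tgtp2. At an unadjusted edgeR p under 0.05 stood all 10 members and 4.96% of all genes on the higher side, with 1.1% of all genes on the lower side. DESeq2 called all 10 members higher, with adjusted p-values from 8.81e-94 for Gm4841 to 1e-08 for Tgtp2, and it called 2.93% of all genes higher and 0.327% lower. Because these differences were known when the family was chosen, nothing is read from the members' counts against those shares. For a value taken alone, 2 against 2 libraries allow an exact permutation p (two-sided) of no less than 0.333.

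**Figure D1:**
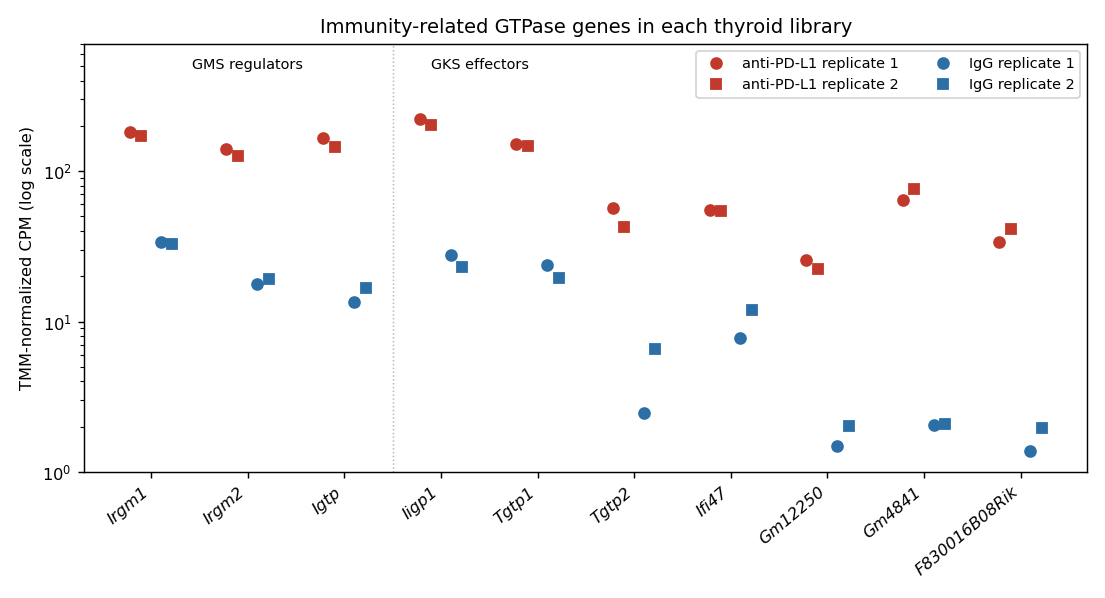
TMM-normalized CPM on a log axis for the 10 IRG genes in each of the 4 libraries, with GMS regulators left of the dotted line and GKS effectors right of it. Each gene's anti-PD-L1 points (red) lie above its IgG points (blue), with the widest gap for Gm4841 and the widest spread within IgG for Tgtp2.

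Among the regulators, Irgm1 is encoded on the minus strand of chromosome 11 from 48861968 to 48871683 and is known from knockout mice for its part in resistance to several intracellular pathogens. It had 182 and 171 CPM in anti-PD-L1 thyroids, against 33.7 and 32.7 CPM in IgG thyroids. The replicates differed by at most 1.06 times, and the log2 fold change, 2.41 ± 0.17 (SE, 2 libraries a group), was the smallest of the family. Irgm2, a regulator found on the Golgi, lies from 58199618 to 58222782. Its level was 140 and 126 CPM in anti-PD-L1 thyroids and 17.6 and 19.2 CPM in IgG thyroids, giving a log2 fold change of 2.85 ± 0.17. Igtp, also called Irgm3, lies from 58199556 to 58207591 and encodes a regulator found on the endoplasmic reticulum and lipid droplets. It had 166 and 144 CPM in anti-PD-L1 thyroids, against 13.6 and 16.8 CPM in IgG thyroids, with a log2 fold change of 3.35 ± 0.21. Irgm2 and Igtp thus stood 7.20 and 10.2 times higher, and neither had groups that overlapped. Their GENCODE models overlap on the same strand by 162 exon bases, which is 8.01% of the Igtp exons. Only 0.739% of the 150-base stretches of Igtp transcripts also occur in Irgm2 transcripts.

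Tgtp1 and Tgtp2 encode the effector Irgb6, one of the first to reach the vacuole of Toxoplasma in mouse cells. Tgtp1 is on the minus strand of chromosome 11 from 48985327 to 48994172, and Tgtp2 on the same strand from 49057194 to 49064206. Tgtp1 had 151 and 147 CPM in anti-PD-L1 thyroids, against 23.9 and 19.4 CPM in IgG thyroids, a log2 fold change of 2.79 ± 0.19. Tgtp2 had 57.2 and 42.7 CPM in anti-PD-L1 thyroids, against 2.48 and 6.57 CPM in IgG thyroids, a log2 fold change of 3.47 ± 0.55. The IgG replicates of Tgtp2 differed by 2.65 times, the widest spread of any member, while the other 9 members differed by at most 1.53 times there. The Tgtp2 log2 fold change was 2.91 without IgG replicate 1 and 4.33 without IgG replicate 2.

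The pair is nearly identical in sequence, and 62.5% of the 150-base stretches of Tgtp1 transcripts also occur in Tgtp2 transcripts (68.4% of those of Tgtp2). The ratio of Tgtp1 to Tgtp2 counts was 2.65 and 3.45 in anti-PD-L1 thyroids, and 9.64 and 2.96 in IgG thyroids. IgG replicate 1 alone stood far from the other 3. Summed, the pair had 209 and 190 CPM in anti-PD-L1 thyroids, against 26.3 and 26.0 CPM in IgG thyroids. The sum therefore differed little between the IgG replicates in which the separate values did, and its log2 fold change was 2.93 ± 0.18. Gm12185, a neighbouring gene that shares 223 exon bases with Tgtp1, had 30.3 and 26.4 CPM in anti-PD-L1 thyroids and 1.34 and 4.48 CPM in IgG thyroids. Like Tgtp2 it was lower in IgG replicate 1 than in IgG replicate 2, a direction seen in 7 members, Tgtp2 among them. With Gm12185 added to the pair, the sum was 27.68 and 30.45 CPM in IgG thyroids. How the counting divided reads among these genes was not tested, so their separate levels are uncertain.

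**Figure D2:**
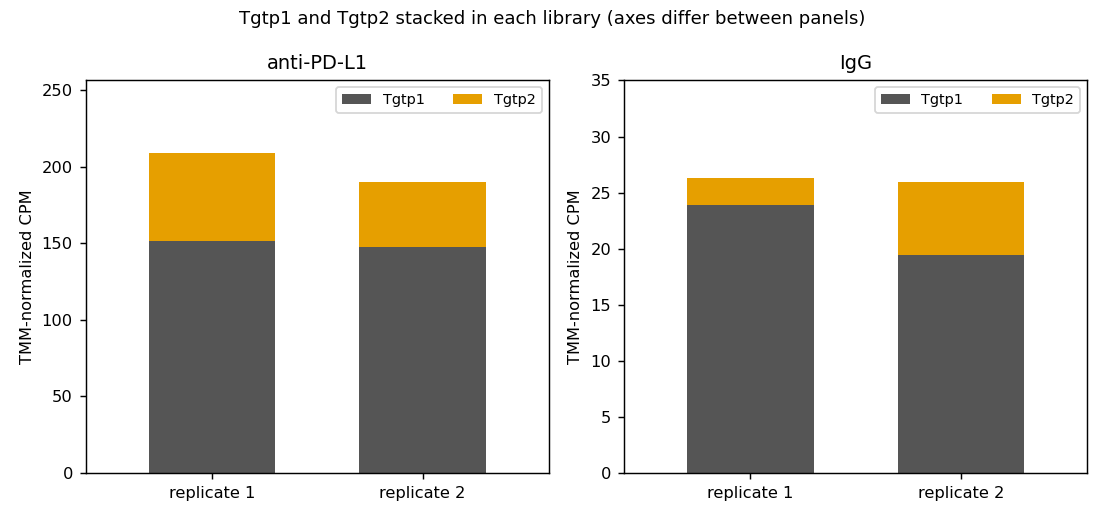
Stacked TMM-normalized CPM of Tgtp1 (grey) and Tgtp2 (orange) in anti-PD-L1 thyroids (left) and the IgG libraries (right), on axes that both start at 0 but differ in scale. The stacks of the IgG replicates reach 26.3 and 26.0 CPM although the Tgtp2 part is 2.48 CPM in replicate 1 and 6.57 CPM in replicate 2.

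Iigp1 encodes Irga6, the IRG effector whose crystal structure was solved and which coats the Toxoplasma vacuole, and lies on chromosome 18 from 60376027 to 60392634. It had the highest CPM of the family after anti-PD-L1, with 221 and 202 CPM in anti-PD-L1 thyroids and 27.6 and 23.0 CPM in IgG thyroids. Its log2 fold change was 3.06 ± 0.21. Ifi47 encodes Irgd, an effector that also loads onto the Toxoplasma vacuole, and lies on chromosome 11 from 49076587 to 49096974. It had 55.4 and 53.9 CPM in anti-PD-L1 thyroids, against 7.83 and 11.9 CPM in IgG thyroids, a log2 fold change of 2.47 ± 0.26. The lowest anti-PD-L1 value of Ifi47 was 4.51 times its highest IgG value, the narrowest gap among the members. Its exons overlap those of Olfr56 on the same strand and of the pseudogene Gm12188 on the other, and the strand setting of the counting is not given in the sources used here.

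Gm12250 encodes Irgb10, which attacks the membranes of intracellular bacteria in mouse macrophages and is known for freeing ligands for inflammasomes. It had 25.7 and 22.4 CPM in anti-PD-L1 thyroids, against 1.48 and 2.02 CPM in IgG thyroids. Its log2 fold change was 3.78 ± 0.25. RefSeq begins this gene well upstream of the 1-exon GENCODE model (58187739 to 58189012), and which model the count used is not given in the sources used here.

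Gm4841 and F830016B08Rik lie next to Iigp1 on chromosome 18, from 60268305 to 60273272 and from 60293380 to 60303016. RefSeq lists them as Ifgga3 and Ifgga4, names of the same subfamily as Iigp1 (Ifgga1). Gm4841 had 64.5 and 75.6 CPM in anti-PD-L1 thyroids, against 2.05 and 2.09 CPM in IgG thyroids. Its log2 fold change of 5.08 ± 0.18, or 33.8 times, ranked 3 of 16217 genes from the most positive down and 1 by edgeR p. F830016B08Rik had 33.9 and 41.0 CPM in anti-PD-L1 thyroids, against 1.39 and 1.96 CPM in IgG thyroids. Its log2 fold change of 4.48 ± 0.27 ranked 5 from the most positive down. These were also the 2 members with more in anti-PD-L1 replicate 2 than in replicate 1, where the other 8 had more in replicate 1. The IgG counts behind the values were 164 and 159 for Gm4841 and 111 and 149 for F830016B08Rik, well above the 3 counts taken as the detection floor.

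The members thus differed among themselves in the size of the difference. The 4 with the lowest IgG levels, F830016B08Rik, Gm12250, Gm4841 and Tgtp2, were also the 4 with the largest fold changes, although both quantities use the IgG values. Without IgG replicate 1 this no longer held, as Tgtp2 then had a log2 fold change of 2.91, below Igtp with 3.19, Iigp1 with 3.18 and Tgtp1 with 2.92. The make-up of the family also differed between the groups. Irgm1 made up 16.6% and 16.7% of the family's counts in anti-PD-L1 thyroids, against 25.6% and 24.1% in IgG thyroids. Gm4841 made up 5.88% and 7.37% in anti-PD-L1 thyroids, against 1.56% and 1.54% in IgG thyroids. The 3 chromosome 18 genes together held 29.2% and 31.0% in anti-PD-L1 thyroids, against 23.6% and 19.9% in IgG thyroids. Effector counts were 1.25 and 1.33 times regulator counts in anti-PD-L1 thyroids, against 1.03 and 0.975 times in IgG thyroids. In each of these shares and ratios the groups did not overlap, and no matching figure over all genes was computed. The shares of Iigp1, Tgtp1 and Tgtp2 did overlap. The classes were not uniform. The regulator Igtp held 15.12% and 14.02% in anti-PD-L1 thyroids, against 10.3% and 12.35% in IgG thyroids. The effector Ifi47 held 5.045% and 5.257% in anti-PD-L1 thyroids, against 5.949% and 8.809% in IgG thyroids.

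**Figure D3:**
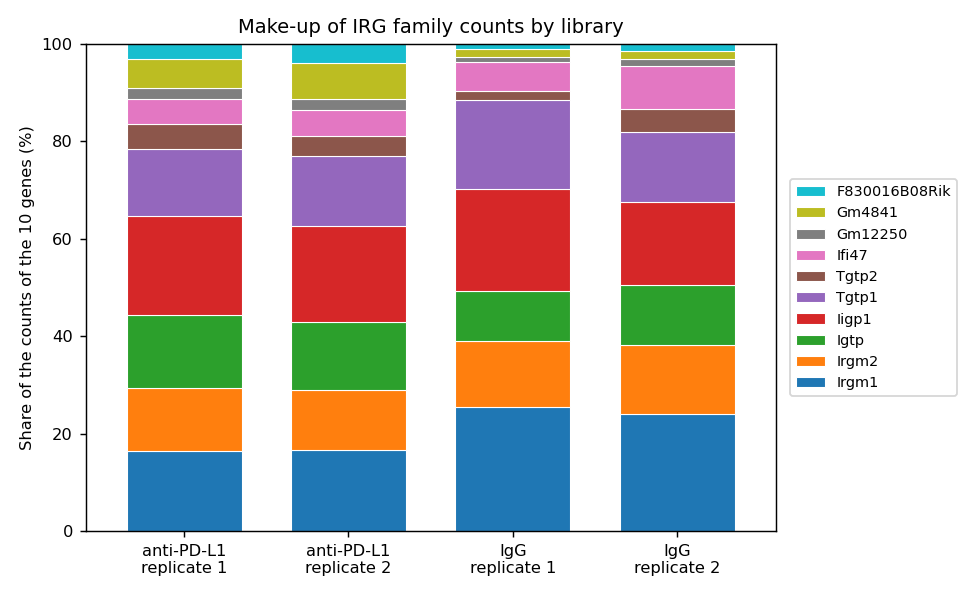
Share of the summed counts of the 10 IRG genes taken by each gene (percent) in each library. The lowest block, Irgm1, takes 16.6% and 16.7% in anti-PD-L1 thyroids and 25.6% and 24.1% in IgG thyroids, while the chromosome 18 genes Gm4841 and F830016B08Rik at the top take more in anti-PD-L1 thyroids.

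Levels of different genes were compared per length, as CPM per kb of merged GENCODE exons. For Gm12250 that length is of the 1-exon GENCODE model, and the model behind its count is not known. The separate levels of Tgtp1 and Tgtp2 are uncertain, as stated above. In the anti-PD-L1 libraries Igtp was highest with a mean of 76.6 CPM per kb, then Tgtp1 with 46.6, Iigp1 with 36.3, Irgm2 with 36.0 and Irgm1 with 30.4. Gm4841 followed with 24.7 CPM per kb, Ifi47 with 22.1, Gm12250 with 18.9, Tgtp2 with 17.0 and F830016B08Rik with 11.4. The replicate ranges of Iigp1 and Irgm2 overlapped, as did those of Gm12250 and Tgtp2, and the other neighbours in this order did not. In the IgG libraries Igtp was also highest with 7.50 CPM per kb and F830016B08Rik lowest with 0.507. Among neighbours in the IgG order, Igtp overlapped Tgtp1, Iigp1 overlapped Ifi47, and Tgtp2 overlapped Gm12250. Irgm2 also overlapped Ifi47, which is not next to it in that order. Irgm1 took place 5 in anti-PD-L1 thyroids and place 3, with 5.71 CPM per kb, in IgG thyroids, and Gm4841 took places 6 and 9. The order depends on the length used, and 4 of the 10 members kept their place in anti-PD-L1 thyroids with the longest transcript instead. With that length Irgm1 had the highest mean in IgG thyroids with 8.66 CPM per kb, before Iigp1 with 8.11, Tgtp1 with 7.66 and Igtp with 7.50. The replicate ranges of Irgm1 (8.80 and 8.53) and Iigp1 (8.85 and 7.36) overlapped there, as did those among Iigp1, Tgtp1 and Igtp.

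The members lie in 3 clusters, and the values of the genes around them were compared. The cluster from Irgm1 to Ifi47 spans 235 kb of chromosome 11, that from Gm12250 to Irgm2 35.0 kb of the same chromosome, and that from Gm4841 to Iigp1 124 kb of chromosome 18. Of the listed genes inside the clusters, 4 were not members, namely Gm12185, Gm5431, 9930111J21Rik1 and Psme2b. Their log2 fold changes were 3.28 ± 0.64, 1.70 ± 0.41, 1.37 ± 0.32 and 0.85 ± 0.19. Gm12185, Gm5431 and 9930111J21Rik1 are on the list of other IRG relatives and large interferon-inducible GTPases read below, and Psme2b is not. Gm4951, described next, is also on that list. Within 100 kb outside the clusters lay 11 listed genes. Gm4951, beside Gm4841, had 3.80 and 4.27 CPM in anti-PD-L1 thyroids and 1.00 and 0.932 CPM in IgG thyroids, a log2 fold change of 2.06 ± 0.24. The other 10 had log2 fold changes between −0.68 for Zfp692 and 0.17 for Cnot8. The nearest listed genes, Trim7 before Irgm1 and Mrpl22 before Gm12250, had values of −0.012 ± 0.31 and 0.12 ± 0.26. None of these neighbours passed the threshold with edgeR, which called 0 genes in all. DESeq2 called Gm12185 (adjusted p = 3.99e-06), Gm4951 (3.49e-07), Gm5431 (0.012) and 9930111J21Rik1 (0.0176) higher. The DESeq2 results of Psme2b and the other neighbours are not given here.

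**Figure D4:**
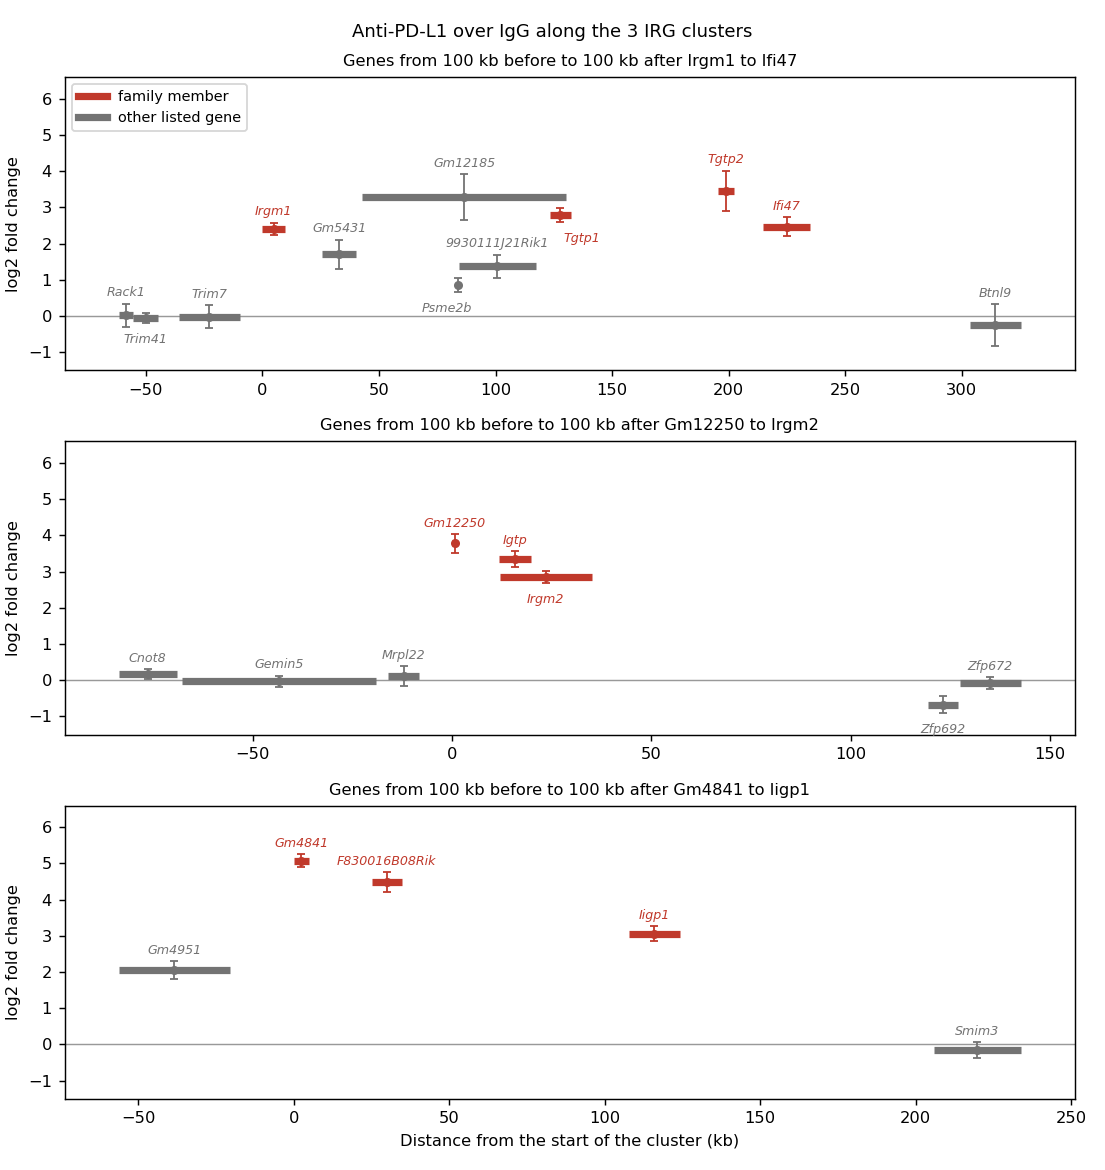
Log2 fold change of anti-PD-L1 over IgG (edgeR, error bars SE, n = 2 per group) for every listed gene in and within 100 kb of the 3 IRG clusters, against distance in kb from the start of the cluster; thick bars show gene spans. Members (red) lie between 2.41 and 5.08, while 10 of the 11 genes outside the clusters lie between −0.68 and 0.17.

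The interferon gamma pathway upstream of the family was read from a list of 16 genes. edgeR called 0 of them in either direction and DESeq2 9 higher and 0 lower, and the list's median log2 fold change was 1.25. Beside this and the lists that follow, DESeq2 called 2.93% of all genes higher and 0.327% lower. Ifng, the gene of interferon gamma itself, had 2.84 and 2.95 CPM in anti-PD-L1 thyroids, against 1.15 and 1.35 CPM in IgG thyroids (log2 fold change 1.21 ± 0.25). Irf1, an interferon-induced factor that binds ISRE letters, had 89.0 and 78.1 CPM in anti-PD-L1 thyroids, against 35.1 and 29.7 CPM in IgG thyroids (1.37 ± 0.17). Stat2, a subunit of ISGF3, and Nlrc5, the activator of MHC class I genes, had log2 fold changes of 1.66 ± 0.20 and 1.88 ± 0.21. The receptor and kinase genes are named here with their values already known. The receptor gene Ifngr1 had 63.5 and 65.5 CPM in anti-PD-L1 thyroids, against 43.9 and 47.4 CPM in IgG thyroids (0.50 ± 0.14), and these groups did not overlap. The log2 fold change was −0.0058 ± 0.25 for the other receptor gene, Ifngr2, 0.21 ± 0.19 for Jak1 and 0.33 ± 0.20 for Jak2.

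The guanylate-binding proteins, GTPases that act with the IRG proteins on pathogen vacuoles, had a list median of 2.65 over 11 genes, with 0 called by edgeR and 10 higher by DESeq2. The log2 fold changes of Gbp6, Gbp2 and Gbp3 were 2.84 ± 0.17, 2.65 ± 0.17 and 2.55 ± 0.18. In the mouse, IRG and GBP loading on vacuoles needs the autophagy conjugation proteins that attach LC3 and GABARAP proteins to membranes. The list read for them held 13 genes, with those of LC3 and GABARAP proteins and Becn1 included. Its median was 0.070, and edgeR and DESeq2 each called 0 of its genes in either direction. At an unadjusted edgeR p under 0.05 stood 0 of them. Atg5, a part of the conjugating complex, had 33.6 and 29.1 CPM in anti-PD-L1 thyroids, against 28.0 and 26.7 CPM in IgG thyroids (0.20 ± 0.16). Atg4b, the protease that primes LC3 and GABARAP proteins, had 0.14 ± 0.15, and Gabarap 0.19 ± 0.21.

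Ubiquitin and its adaptors are also recruited to IRG-coated vacuoles. Their 9 genes had a median of 0.089, with 0 called by edgeR and 1 higher by DESeq2. That gene was Trim21, an interferon-inducible ubiquitin ligase and antibody receptor of the cytosol, with 15.5 and 18.6 CPM in anti-PD-L1 thyroids and 8.90 and 8.47 CPM in IgG thyroids (log2 fold change 0.97 ± 0.18). Calcoco1 and Optn had −0.14 ± 0.18 and 0.098 ± 0.20. The median over all genes tested was 0.00021.

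**Figure D5:**
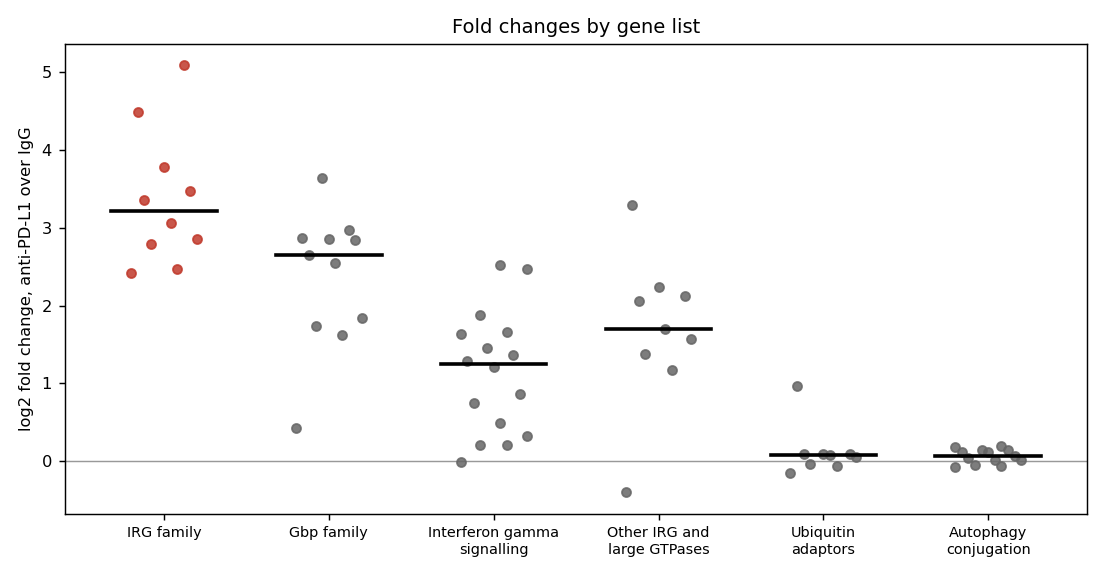
Log2 fold change of anti-PD-L1 over IgG for each listed gene of 6 gene lists (points) with the list median (bar). Medians are 3.21 for the IRG family, 2.65 for the Gbp family, 1.25 for interferon gamma signalling, 0.089 for ubiquitin adaptors and 0.070 for autophagy conjugation.

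Markers of immune cells, which can express IRG genes, were read from 4 lists. edgeR called 0 genes of these lists in either direction, and DESeq2 called 7 of 8 T cell genes, 7 of 8 macrophage genes, 7 of 7 NK and cytotoxic genes and 0 of 4 B cell genes higher, and none of them lower. Of all genes tested, 16.5% had both anti-PD-L1 values above both IgG values and 13.1% had both below. The 8 T cell genes all had both anti-PD-L1 values above both IgG values, with summed levels of 132 and 133 CPM in anti-PD-L1 thyroids, against 23.3 and 43.2 CPM in IgG thyroids. Of the 8 macrophage genes 7 did so, with 806 and 741 CPM in anti-PD-L1 thyroids and 170 and 226 CPM in IgG thyroids, and the remaining gene, Mertk, had a log2 fold change of −0.28 ± 0.24. All 7 NK and cytotoxic genes did so, with 37.1 and 42.7 CPM in anti-PD-L1 thyroids and 3.88 and 5.83 CPM in IgG thyroids. None of the 4 B cell genes did so, with 113 and 57.0 CPM in anti-PD-L1 thyroids and 25.4 and 89.4 CPM in IgG thyroids. No gene of these lists was at 0 in any library. Their list medians were 2.15 for T cells, 2.10 for macrophages, 2.76 for NK and cytotoxic cells and 0.54 for B cells, and their part in the IRG values was not tested.

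The thyrocyte genes had a median of 0.063. Their sum, mostly Tg, was 46110 and 167200 CPM in anti-PD-L1 thyroids and 155800 and 150300 CPM in IgG thyroids. The family's summed level in anti-PD-L1 thyroids differed much less between those replicates, at 1097 and 1025 CPM. Endothelial genes had a median of −0.11, with 171 and 250 CPM in anti-PD-L1 thyroids and 232 and 210 CPM in IgG thyroids. Fibroblast genes had a median of 0.26, with 536 and 511 CPM in anti-PD-L1 thyroids and 413 and 463 CPM in IgG thyroids. Markers of neighbouring tissue were also read. Skeletal muscle genes summed to 38240 and 13540 CPM in anti-PD-L1 thyroids and 22800 and 32610 CPM in IgG thyroids, and squamous epithelial genes to 4320 and 45.7 CPM in anti-PD-L1 thyroids and 10500 and 2829 CPM in IgG thyroids. Cartilage genes summed to 82.7 and 135 CPM in anti-PD-L1 thyroids, against 170 and 197 CPM in IgG thyroids. The cartilage list had a median of −0.79, edgeR called 0 of its 4 genes and DESeq2 2 lower. Acan, which encodes aggrecan, had 7.35 and 10.6 CPM in anti-PD-L1 thyroids, against 56.3 and 75.1 CPM in IgG thyroids (log2 fold change −2.87 ± 0.28). The other of the 2, the cartilage matrix gene Matn3, had −1.33 ± 0.30. The part of these tissues in the IRG values was not tested.

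The genes whose values followed the family's mean most closely over the 4 libraries were sought among 16052 genes with a mean of at least 1 CPM. The measure was the root mean square distance between centred log2 CPM profiles, which was at most 0.263 for the 5 nearest genes. These were Klra2 (0.150), a lectin receptor of NK and myeloid cells, Clec12a (0.163), an inhibitory lectin receptor of myeloid cells, Gbp8 (0.228), Gzmb (0.231), the gene of granzyme B, and H2-Q6 (0.263), an MHC class I gene. Among the members the distance was smallest for Igtp (0.0498) and largest for Gm4841 (0.847). Klra2 had 4.07 and 2.94 CPM in anti-PD-L1 thyroids and 0.250 and 0.315 CPM in IgG thyroids. Clec12a had 16.2 and 12.8 CPM in anti-PD-L1 thyroids and 1.33 and 1.25 CPM in IgG thyroids. With 4 libraries in 2 groups, this distance mostly ranks genes by how near their fold change is to the family's mean.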

How the data were processed

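Thyroid RNA was measured in 4 libraries, 2 per group, grouped by their titles. The authors deposited expected counts, unnormalized, 1 row per symbol. Per the submitters' processing notes, BWA and mm10 (the same assembly as GRCm38) were used, with no role or version. Neither the counting program nor its annotation, strandedness or filter on genes is given in the sources used here. Each listed gene reached a count of 100 in at least 1 library. The 13 blank cells were read as 0, none of them in a member, and counts were rounded.

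edgeR 4.0.16 in R 4.3.3 was run with filterByExpr (16217 genes kept), TMM scaling, robust dispersions and the quasi-likelihood F test for the group term (Benjamini-Hochberg over all genes, threshold 0.05). The standard error is the absolute log2 fold change over the square root of F. The median biological coefficient of variation was 24.4%, with 2 residual degrees of freedom. At these depths 3 counts correspond to 0.0377 to 0.0397 CPM, which covers counting error only. Nothing states that libraries of a group were prepared separately beyond the titles, so p-values measure the spread between these samples. Chi-square over its degrees of freedom between replicates was 1060 in anti-PD-L1 and 321 in IgG, far above counting noise.

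The members and the gene lists were chosen with earlier results of these data known. All members were named. Of each pathway list, the 3 genes of smallest p were named, with Ifng and Irf1; 1 gene that this rule names is not reported here. Alternatives were scaling by RLE, upper quartile or library size alone, no filter on counts, a stricter one (1 CPM in 2 libraries and a mean count of 20), DESeq2 1.42.0, limma 3.58.1 voom, a block for the replicate number, leaving out libraries singly, Tgtp1 and Tgtp2 summed, and transcript length. Coding sequences were aligned globally with Biopython 1.88, and identity counts gap columns. No protein table was used here, so coding sequences replaced the planned protein comparison, and the longest reading frame was used for Gm12250. Exact matches of 150 bases were sought in all GENCODE transcripts on both strands. Sequences are of the reference genome and not of NOD.H-2h4.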

Additional observations from a re-analysis of the deposited data

How the results depend on the processing

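All 10 members had a positive log2 fold change in each of the 12 alternatives that fitted them separately, and none reversed. DESeq2 called 475 genes higher and 53 lower, 10 members among them, where edgeR called 0 of each; every other alternative also called 0. The cause was not tested. When single libraries were left out, the median ranged from 3.05 to 3.28 over the members, 1.04 to 1.33 over the interferon gamma list, 2.52 to 2.76 over the Gbp list, −0.037 to 0.14 over the autophagy list and −0.085 to 0.11 over the ubiquitin list. The lowest member median came without IgG replicate 1, the negative autophagy median without anti-PD-L1 replicate 1 and the negative ubiquitin median without anti-PD-L1 replicate 2. With Tgtp1 and Tgtp2 summed the member median was 3.06. By longest transcript, 4 of 10 members kept their place in the order per length. Other scalings moved the median of all genes to between −0.013 and 0.020.

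The titles number the replicates 1 and 2 in both groups, but nothing says that a number marks shared animals or days. Deviations of same-numbered libraries correlated across genes at 0.0998. With the replicate block edgeR called 0 genes higher, 0 lower and 0 members, and the medians were 3.21, 1.28, 2.65, 0.069 and 0.083 for the lists in the order above. There were 2 libraries per group and 2 residual degrees of freedom, and members had at least 111 counts in each library.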

Other observations

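Other IRG relatives and large interferon-inducible GTPases were read from a list of 16 symbols, of which 9 were in the table. Of these, edgeR called 0 in either direction and DESeq2 6 higher and 0 lower, with a median log2 fold change of 1.70. The 3 of smallest p were Gm4951, given above, Gm4070 and Gvin1, the last a very large interferon-inducible GTPase. Gvin1 had 4.26 and 6.89 CPM in anti-PD-L1 thyroids, against 1.29 and 1.26 CPM in IgG thyroids, and Gm4070 had 4.27 and 6.86 CPM in anti-PD-L1 thyroids and 1.19 and 1.17 CPM in IgG thyroids. These values are nearly equal in every library, and how reads were divided between the genes was not tested. Irgq, an IRG-like gene that is not known as interferon-inducible, was the 1 gene below 0. It had 35.5 and 39.7 CPM in anti-PD-L1 thyroids, against 52.8 and 46.2 CPM in IgG thyroids, or −0.40 ± 0.16 as log2 fold change (edgeR, adjusted p = 0.88), and was chosen after its values were seen. The dynamin-like antiviral genes Mx1 and Mx2 were chosen after their values were seen. Mx1 had 1.66 and 2.39 CPM in anti-PD-L1 thyroids and 0.838 and 0.959 CPM in IgG thyroids, and Mx2 had 2.50 and 5.85 CPM in anti-PD-L1 thyroids and 1.70 and 1.10 CPM in IgG thyroids.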
